A study of Mus musculus with 12 samples.

Results

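A 3′ splice site is the end of an intron, and an alternative 3′ splice site is one of several ends that can be joined to the same 5′ splice site, so that the downstream exon starts at different places. The 3115 sites described here were the entries of the authors' inclusion table for alternative 3′ splice sites chosen by 2 measured properties, a value present in each of 12 libraries and a mean of 2% to 98%, after the first site of every group of competing sites was left out. They came from 24291 such sites, of which 12707 had a value in every library. Of these, 4302 had a mean under 2% and 5290 a mean over 98%. The members lay in 2712 groups of competing sites in 2035 genes, and they were 3115 of 28980 splicing events of every type tested together. The values that chose them were their means over all 12 libraries, not a difference between groups.

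The libraries were polyA RNA from N2a Flp-In rtTA cells, a mouse neuroblastoma line with a site for a single doxycycline-inducible transgene. In one line, here called Ex3-minus, the transgene was a Sap30bp cDNA without exon 3, and in the other, Ex3-plus, it held that exon. Each line gave a control group (a non-targeting siRNA pool, no doxycycline), a knockdown group (1 siRNA against Sap30bp, no doxycycline) and a rescue group (the same siRNA with doxycycline), with 2 biological replicates per group. Wells of a condition were combined at harvest, 72 hours after transfection, and the medium had been exchanged at 24 hours. All 6 groups carried the transgene. Control siRNA was never combined with doxycycline. The effects of the drug and of the induced isoform therefore cannot be told apart, and neither can isoform and line. With 1 siRNA, knockdown against control cannot tell the loss of Sap30bp apart from other effects of that siRNA.

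During intron removal, SF1 binds the branch point, U2AF2 the pyrimidine-rich tract and U2AF1 the AG dinucleotide at the end of the intron. The U2 snRNP then replaces SF1 at the branch point, and after the first step of splicing an AG downstream of the branch point is chosen as the site of exon joining. Closely spaced AGs compete, and a pair that lies 1 codon apart, written NAGNAG, adds or removes a single codon at the start of the exon. SAP30BP works together with RBM17, a splicing factor with a domain that binds the U2 snRNP protein SF3B1, in the recognition of 3′ splice sites.

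In the table, site 1 of a group is the innermost site, which gives the shortest exon, and each higher site lies upstream and adds nucleotides to the exon. The value of a site is the percentage of transcripts of its group that use it, and all 13588 groups complete in one library summed to 100% within 0.05. Members of a group are therefore not independent: in a pair, the outer site falls by as much as the inner one rises. Of the members, 2050 came from pairs, 816 from groups of 3, 191 from groups of 4 and 58 from larger groups, and 382 groups held more than 1 member. Just inside the rule lay a site of Mkln1 with a mean of 2% (0 to 4.92%) and one of Anks3 with 97.998% (95.4 to 100%), and just outside it one of Nubp2 with 1.996% (0.68 to 3.73%) and one of Rnf146 with 98.002% (96.1 to 99.7%).

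Positions are given on mm9 as in the authors' table. The sequences come from GENCODE vM21 transcripts (GRCm38), joined to the sites by chromosome, strand, intron length and exon structure, not by coordinates. Of the 3115 members, 2337 (75%) were joined in this way, 1171 with both the inner and the outer site annotated and 1166 with the outer site alone. The stretch added by the outer site ended in AG in 2326 of 2333 joined members that add 2 or more nucleotides. It was coding in 1836 (78.6%), in a UTR in 257 (11%), partly coding in 115 and in a transcript with no coding sequence in 129.

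The sequences of short additions among the sites that changed most show the AG in front of the inner site, which ends the added stretch. The AG in front of an outer site belongs to its intron and is not part of the sequence printed for it. The AG in front of the 6 nt site of 2810403A07Rik lies within the 34 nt addition printed for the same gene. Each sequence is read 5′ to 3′ in the spliced transcript, with 20 nucleotides of the upstream exon before and 20 after. Capitals mark the nucleotides present only when the outer site is used.
Mdm4 (3 nt): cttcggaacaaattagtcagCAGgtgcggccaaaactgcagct
Hmbox1 (3 nt): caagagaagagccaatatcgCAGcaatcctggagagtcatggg
Naa10 (5 nt): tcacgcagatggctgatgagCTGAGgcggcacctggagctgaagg
2810403A07Rik (6 nt): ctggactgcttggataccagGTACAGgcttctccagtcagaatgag
2810403A07Rik (34 nt): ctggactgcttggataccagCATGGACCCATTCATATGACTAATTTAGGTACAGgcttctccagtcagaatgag
Tgfbr1 (12 nt): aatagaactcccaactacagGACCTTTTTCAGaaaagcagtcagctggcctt
For long additions, the last 60 added nucleotides are shown with the 20 that follow, and capitals mark the AG in front of the inner site, which is the end of the intron when the inner site is used.
Pitpnm1 (106 nt): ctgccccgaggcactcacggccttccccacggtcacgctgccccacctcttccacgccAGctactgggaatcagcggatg
Pdlim5 (327 nt): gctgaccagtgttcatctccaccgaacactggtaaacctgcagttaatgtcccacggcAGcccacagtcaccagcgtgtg
0610007P22Rik (116 nt): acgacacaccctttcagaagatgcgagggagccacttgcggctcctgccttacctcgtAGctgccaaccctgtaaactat
The added 6 nucleotides of 2810403A07Rik are also the end of its 34 nucleotide addition, since its 3 sites are nested. Of the 20 nucleotides before the inner AG, 80% were pyrimidines in Pitpnm1, 75% in 0610007P22Rik and 55% in Pdlim5, against a median of 65% over the 955 joined members for which the 20 nucleotides lie within the addition.

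The median added length was 17 nt (quartiles 3 and 54 nt), and lengths ranged from 1 to 478 nt. Additions of exactly 3 nt formed a class of 776 members. A further 665 members added other lengths under 13 nt, 819 added 13 to 49 nt, 718 added 50 nt to under 150 nt and 137 added 150 nt or more. The length was a multiple of 3, which keeps the reading frame, in 1626 members (52.2%), but among the 2255 longer than 3 nt it was so in 850 (37.7%), and in 482 of 1191 (40.5%) coding additions longer than 3 nt. The introns in front of the outer sites were 948 nt long at the median (quartiles 320.5 and 2285.5 nt).

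Use of the outer site was spread toward the extremes: the median over members was 80.6%, with 748 members under 10%, 1066 between 10% and 90% and 1301 over 90%. The levels differed by added length. The median was 81.4% for 3 nt, 94.6% for other lengths under 13 nt, 33.2% for 13 to 49 nt, 60.2% for 50 nt to under 150 nt and 27.6% for 150 nt and over. The rule bounds these levels at 2% and 98%, and they are given as a description.

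Among members that add 3 nt, 654 of 776 (84.3%) were joined to a transcript, and in 653 of them the added codon-length stretch was NAG. The first of its nucleotides was C in 365, A in 176, T in 57 and G in 55. The outer site was used most where the inner AG followed G or A: the median use was 94.8% for GAG (quartiles 92.2 and 96.8%) and 94.5% for AAG (87.8 and 96.7%), against 72.4% for CAG (42.8 and 89.1%) and 75.6% for TAG (35.8 and 90%). The use was over 90% in 85.5% of the GAG and 71.0% of the AAG members and in 22.7% of the CAG and 26.3% of the TAG members. This order concerns levels over all 12 libraries. The median knockdown change, control to knockdown in both lines, was 0.38 points for GAG, 0.11 for AAG, 0.06 for CAG and 0.14 for TAG. Sites joined to a transcript are those whose outer site is annotated, so unannotated outer sites are missing from these medians.

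In the authors' deposited table of gene expression, Sap30bp was at 40.03 and 33.6 RPKM in the Ex3-minus and Ex3-plus control groups, at 21.7 and 18.6 after knockdown and at 196.5 and 141.3 after rescue. The transgene of the rescue groups is itself a Sap30bp cDNA. Of 15 neuroblastoma and neuronal markers, 12 reached 1 RPKM in some group (summed level 1123 to 1537 RPKM), while Th, Nefl and Nefm did not. Of 10 fibroblast markers 8 stayed under 1 RPKM in every group, and the summed level of 57.8 to 159 RPKM was nearly all Fbln1 (54.4 to 156 RPKM). Of 10 glial and immune markers 6, and of 5 epithelial markers 4, stayed under 1 RPKM in every group (summed levels 9.14 to 11.7 and 1.14 to 2.69 RPKM). Between the 2 replicates of a group, the absolute difference was at the median 2.16 to 2.63 points over the members. The correlation across members was between 0.990 and 0.993. The read numbers behind the percentages are unknown, so no counting interval is given, and p-values measure only the spread between these libraries.

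After knockdown of Sap30bp, the use of a small number of competing 3′ sites differed from control, in both directions. A site was called when limma, fitted to all 28980 events, gave an adjusted p under 0.05 and a difference of at least 15 percentage points. In the mean of both lines 12 of 3115 members (0.385%) in 11 groups were called, 6 higher and 6 lower, where 1.48% of all events were called. Of all events, 1.00% were called higher and 0.483% lower. At any size, 42 members had an adjusted p under 0.05 (17 higher, 25 lower), which is 1.35% of members where 3.86% of all events did. The unadjusted p was under 0.05 in 393 members (12.6%, where 19.1% of all events were), and 21 members moved by at least 15 points, where 2.11% of all events did. The median change was 0.02 points against 0.39 over all events, whose sign has a different meaning for each event type. It was 0.82 for introns, -0.62 for cassette exons and 0.05 for alternative 5′ splice sites. The median absolute change was 1.54 points for the members and 1.77 over all events.

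Like the count over all events, the count of called sites rested on few libraries. It was 5 without Ex3-minus control replicate 1 (0 higher, 5 lower), 4 without Ex3-plus control replicate 1 (1 higher, 3 lower), 8 without Ex3-minus knockdown replicate 2 (2 higher, 6 lower) and 19 without Ex3-minus knockdown replicate 1 (6 higher, 13 lower). The called share was 0.492% among 2031 alternative 5′ splice sites, 2.02% among 6738 cassette exons and 1.59% among 17096 introns. The 4 knockdown libraries did not overlap the 4 control libraries in 288 members (9.25%), where 12.5% of all events did not overlap. These 288 include 11 of the 12 called sites, which were chosen by the difference between these same libraries.

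The largest increase was at Mdm4, whose product binds and inhibits p53. The outer of its 2 sites, at position 134909291 of chromosome 1, adds 3 nt of coding sequence, and the inner site follows a CAG. In the Ex3-minus line 41.99% and 32.04% of transcripts used it in control, 58.3% and 57.03% after knockdown and 65.4% and 45.1% after rescue. The Ex3-plus line gave 25.7% and 46.9% in control, 61.5% and 67.4% after knockdown and 42.3% and 54.7% after rescue. All 4 knockdown libraries lay above all 4 control libraries, while the rescue libraries of both lines overlapped those of knockdown or control. The use was 36.7% ± 9.6 (SD, n = 4) in control and 61% ± 4.6 (SD, n = 4) after knockdown, a difference of 24.4 points (SE 5.7, limma adjusted p = 0.0414). Its control libraries had the largest SD of the 12 called sites, and its adjusted p ranged from 0.0126 to 0.397 over the alternatives. It was over 0.05 in limma without any one of the 4 Ex3-minus libraries of control and knockdown (0.092, 0.124, 0.0718 and 0.116), without Ex3-plus control replicate 1 (0.15) and without either Ex3-plus knockdown library (0.056 and 0.111).

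A second 3 nt site rose in Ncam1, the neural cell adhesion molecule. It lay at position 49331754 of chromosome 9. The Ex3-minus libraries had 55.8% and 60.2% use in control, 69.4% and 71.4% after knockdown and 66.5% and 71.2% after rescue. In the Ex3-plus line its use was 55.7% and 67.4%, 78.4% and 79.9% and 78.9% and 78.2% in the same order. The knockdown libraries were all above the control libraries, and the rescue libraries stayed at the level of knockdown in both lines. The use was 59.8% ± 5.5 (SD, n = 4) in control and 74.8% ± 5.1 (SD, n = 4) after knockdown, a difference of 15 points (SE 2.8, limma adjusted p = 0.0166). The call was lost without Ex3-minus control replicate 1 (limma adjusted p = 0.0806), Ex3-plus control replicate 1 (0.0608) or Ex3-minus knockdown replicate 2 (0.0664), and without Ex3-plus knockdown replicate 2 the difference was 14.6 points.

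The short additions in Naa10 and Tgfbr1 also became more frequent. Naa10 is the catalytic subunit of the NatA N-terminal acetyltransferase, and its 4 competing sites include one that adds 5 nt of coding sequence, at position 71162534 of chromosome X. Use in the Ex3-minus line was 34.3% and 38.02% in control, 51.2% and 55.9% after knockdown and 51.8% and 41.5% after rescue. Values of 38.8% and 36.5%, 57.4% and 53.9% and 46.4% and 47.5% were measured in the corresponding Ex3-plus groups. Control and knockdown libraries did not overlap, and the means of rescue lay between those of control and knockdown. The use was 36.9% ± 2 (SD, n = 4) in control and 54.6% ± 2.7 (SD, n = 4) after knockdown, a difference of 17.7 points (SE 3.2, limma adjusted p = 0.0145). Limma gave an adjusted p over 0.05 without Ex3-minus control replicate 1 (0.0753), either Ex3-plus control library (0.0593 and 0.0505) or Ex3-minus knockdown replicate 2 (0.0622). In the same group, the site that adds 96 nt went from 55.3% ± 1.7 to 41.3% ± 3.2 (SD, n = 4), a change of -14.0 points (SE 3.0, limma adjusted p = 0.0287) that missed the size threshold. The site that adds 92 nt was at 7.7% in control and 4% after knockdown, and the innermost site was at 0% in both.

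Tgfbr1, the type I receptor for TGF-β, has 2 sites, and the outer one, at position 47406119 of chromosome 4, adds 12 nt, or 4 codons. Of the Ex3-minus libraries, those of control gave 52.5% and 57.3%, those of knockdown 65.3% and 63.9% and those of rescue 56.9% and 58.5%. Ex3-plus libraries had 38.4% and 47.3% in control, 65.2% and 69.1% after knockdown and 50% and 56.5% after rescue. Every knockdown library was above every control library, and the rescue libraries were below those of knockdown in each line. The use was 48.9% ± 8.1 (SD, n = 4) in control and 65.9% ± 2.2 (SD, n = 4) after knockdown, a difference of 17 points (SE 3.1, limma adjusted p = 0.0152). Its adjusted p was 0.0768 without Ex3-minus control replicate 1, 0.0694 without Ex3-plus control replicate 1 and 0.0538 without Ex3-minus knockdown replicate 2. In the single lines the change was 9.7 points (SE 4.4, limma adjusted p = 0.476) and 24.3 points (SE 4.4, limma adjusted p = 0.0477), and the latter was called.

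In 2810403A07Rik, named Khdc4 in current annotation and coding for a KH-domain protein that takes part in splicing, use moved between neighbouring sites. The middle site, at position 88513780 of chromosome 3, adds 6 nt and the outermost, at position 88513752 of chromosome 3, adds 34 nt. In the Ex3-minus line 70.1% and 60.2% of transcripts used the 34 nt site in control, 46.2% and 36.9% after knockdown and 67.2% and 66.7% after rescue. For the Ex3-plus line, control, knockdown and rescue gave 73.2% and 75.7%, 58.4% and 54.2% and 60.5% and 54.6%. All knockdown libraries were below all control libraries. In rescue the Ex3-minus line was at the level of its control and the Ex3-plus line at the level of its knockdown. The 34 nt site was used in 69.8% ± 6.8 (SD, n = 4) in control and 48.9% ± 9.5 (SD, n = 4) after knockdown, a difference of -20.8 points (SE 3.3, limma adjusted p = 0.00843). The 6 nt site took up nearly all of that loss, with 30.2% ± 6.8 (SD, n = 4) in control and 50.6% ± 9.5 (SD, n = 4) after knockdown and a difference of 20.4 points (SE 3.5, limma adjusted p = 0.0119), while the innermost site was at 0 in control and 0.5% after knockdown. Since these 2 members are parts of one whole, they count as 1 shift. The call of the 6 nt site was lost without Ex3-minus control replicate 1 (limma adjusted p = 0.0621), Ex3-plus control replicate 1 (0.0501) or Ex3-minus knockdown replicate 2 (0.0507), and that of the 34 nt site was kept without any 1 library.

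Trmt1, a tRNA guanosine methyltransferase, lost use of an outer site. The site lay at position 87213531 of chromosome 8 behind an intron of 282 nt and adds 76 nt, part of them coding. The Ex3-minus libraries had 66.9% and 66.4% use in control, 44.7% and 41.1% after knockdown and 51.9% and 54.96% after rescue. The Ex3-plus line gave 63.8% and 71.6% in control, 50.1% and 51.6% after knockdown and 58.8% and 61.9% after rescue. Control and knockdown did not overlap, and in each line both rescue libraries lay between them. The use was 67.2% ± 3.2 (SD, n = 4) in control and 46.9% ± 4.9 (SD, n = 4) after knockdown, a difference of -20.3 points (SE 2.8, limma adjusted p = 0.00551), and the inner site rose from 32.8% to 53.1% in exchange.

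Pitpnm1, a membrane-associated phosphatidylinositol transfer protein, had the lowest adjusted p of the members. Its middle site, at position 4110842 of chromosome 19, adds 106 nt of coding sequence behind an intron of 182 nt. Use in the Ex3-minus line was 90.3% and 87.8% in control, 80.4% and 82% after knockdown and 83.8% and 83.6% after rescue. In the Ex3-plus line its use was 90.1% and 93.1%, 68.7% and 66.7% and 88.9% and 85% in the same order. Knockdown was below control in both lines, and the rescue libraries of the Ex3-plus line stood above those of its knockdown by more than their spread. The use was 90.3% ± 2.2 (SD, n = 4) in control and 74.4% ± 7.9 (SD, n = 4) after knockdown, a difference of -15.9 points (SE 1.7, limma adjusted p = 0.00292). The innermost site rose from 4.9% ± 3 to 24.2% ± 7.8 (SD, n = 4). By line the change was -7.9 points (SE 2.4, limma adjusted p = 0.253) in the Ex3-minus line and -23.9 points (SE 2.4, limma adjusted p = 0.00723) in the Ex3-plus line. The difference between the lines was -16.1 points (SE 3.4), with an unadjusted limma p of 0.000632 and an adjusted p of 1.

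Mtap4 (Map4), a microtubule-associated protein, lost use of a site that adds 106 nt, at position 109984239 of chromosome 9 behind an intron of 124 nt. Of the Ex3-minus libraries, those of control gave 80.4% and 74.6%, those of knockdown 64.9% and 57.3% and those of rescue 74.8% and 69.2%. Values of 75.9% and 76.3%, 59.96% and 57.9% and 66.9% and 74.7% were measured in the corresponding Ex3-plus groups. Control and knockdown did not overlap, and every rescue library lay above every knockdown library. The use was 76.8% ± 2.5 (SD, n = 4) in control and 60% ± 3.4 (SD, n = 4) after knockdown, a difference of -16.8 points (SE 2.8, limma adjusted p = 0.0112). The adjusted p rose to 0.0621 without Ex3-minus control replicate 1 and to 0.0514 without Ex3-plus control replicate 1, and the change was -14.9 points without Ex3-minus knockdown replicate 2.

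The longest additions among the called sites also fell. Pdlim5, a PDZ and LIM domain protein of the actin cytoskeleton, has an outer site at position 141975505 of chromosome 3 that adds 327 nt, all coding and in frame. In the Ex3-minus line 76.9% and 87.1% of transcripts used it in control, 57.8% and 68.9% after knockdown and 71.2% and 75% after rescue. Ex3-plus libraries had 71.8% and 72.9% in control, 45% and 53.6% after knockdown and 44.3% and 52.9% after rescue. Knockdown was below control throughout, and rescue was at the knockdown level in the Ex3-plus line. The use was 77.2% ± 6.9 (SD, n = 4) in control and 56.3% ± 9.9 (SD, n = 4) after knockdown, a difference of -20.8 points (SE 3.6, limma adjusted p = 0.0125). It was not called without Ex3-minus control replicate 2 (adjusted p = 0.051) or Ex3-plus control replicate 1 (0.0567).

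D14Abb1e (Fam208a), which codes for TASOR, a subunit of the HUSH silencing complex, has an outer site at position 28293828 of chromosome 14 that adds 274 nt, part of them coding. The Ex3-minus libraries had 82.5% and 68.6% use in control, 69.9% and 56.5% after knockdown and 78.1% and 64.4% after rescue. For the Ex3-plus line, control, knockdown and rescue gave 78.8% and 78.4%, 53.7% and 52.2% and 52.2% and 50%. It was the called site whose control and knockdown libraries overlapped, through the Ex3-minus line. In that line replicate 1 was above replicate 2 in control, knockdown and rescue alike. The use was 77.1% ± 5.9 (SD, n = 4) in control and 58.1% ± 8.1 (SD, n = 4) after knockdown, a difference of -19 points (SE 4.1, limma adjusted p = 0.0308). The call ended without Ex3-minus control replicate 1 (limma adjusted p = 0.129) or knockdown replicate 2 (0.113) and without any one of the Ex3-plus control (0.111 and 0.0817) or knockdown libraries (0.0512 and 0.0785).

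Zfp1, a zinc finger protein, was the called site with an addition over 12 nt that rose. Its site 3 of 4, at position 114189961 of chromosome 8, adds 59 nt to a UTR. Use in the Ex3-minus line was 8.60% and 7.71% in control, 23.5% and 24.4% after knockdown and 17.1% and 27.7% after rescue. The Ex3-plus line gave 15.4% and 9.09% in control, 24.3% and 30.8% after knockdown and 28.1% and 36.1% after rescue. All knockdown and rescue libraries were above all control libraries. The use was 10.2% ± 3.5 (SD, n = 4) in control and 25.8% ± 3.4 (SD, n = 4) after knockdown, a difference of 15.6 points (SE 3.4, limma adjusted p = 0.0318), and the main site of the group, which adds 42 nt, was at 75.8% ± 8.2 in control and 62.9% ± 2.8 after knockdown (SD, n = 4). The call ended when any one of the 8 control and knockdown libraries but Ex3-plus knockdown replicate 1 was left out, with limma adjusted p values from 0.0503 to 0.11.

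**Figure D1:**
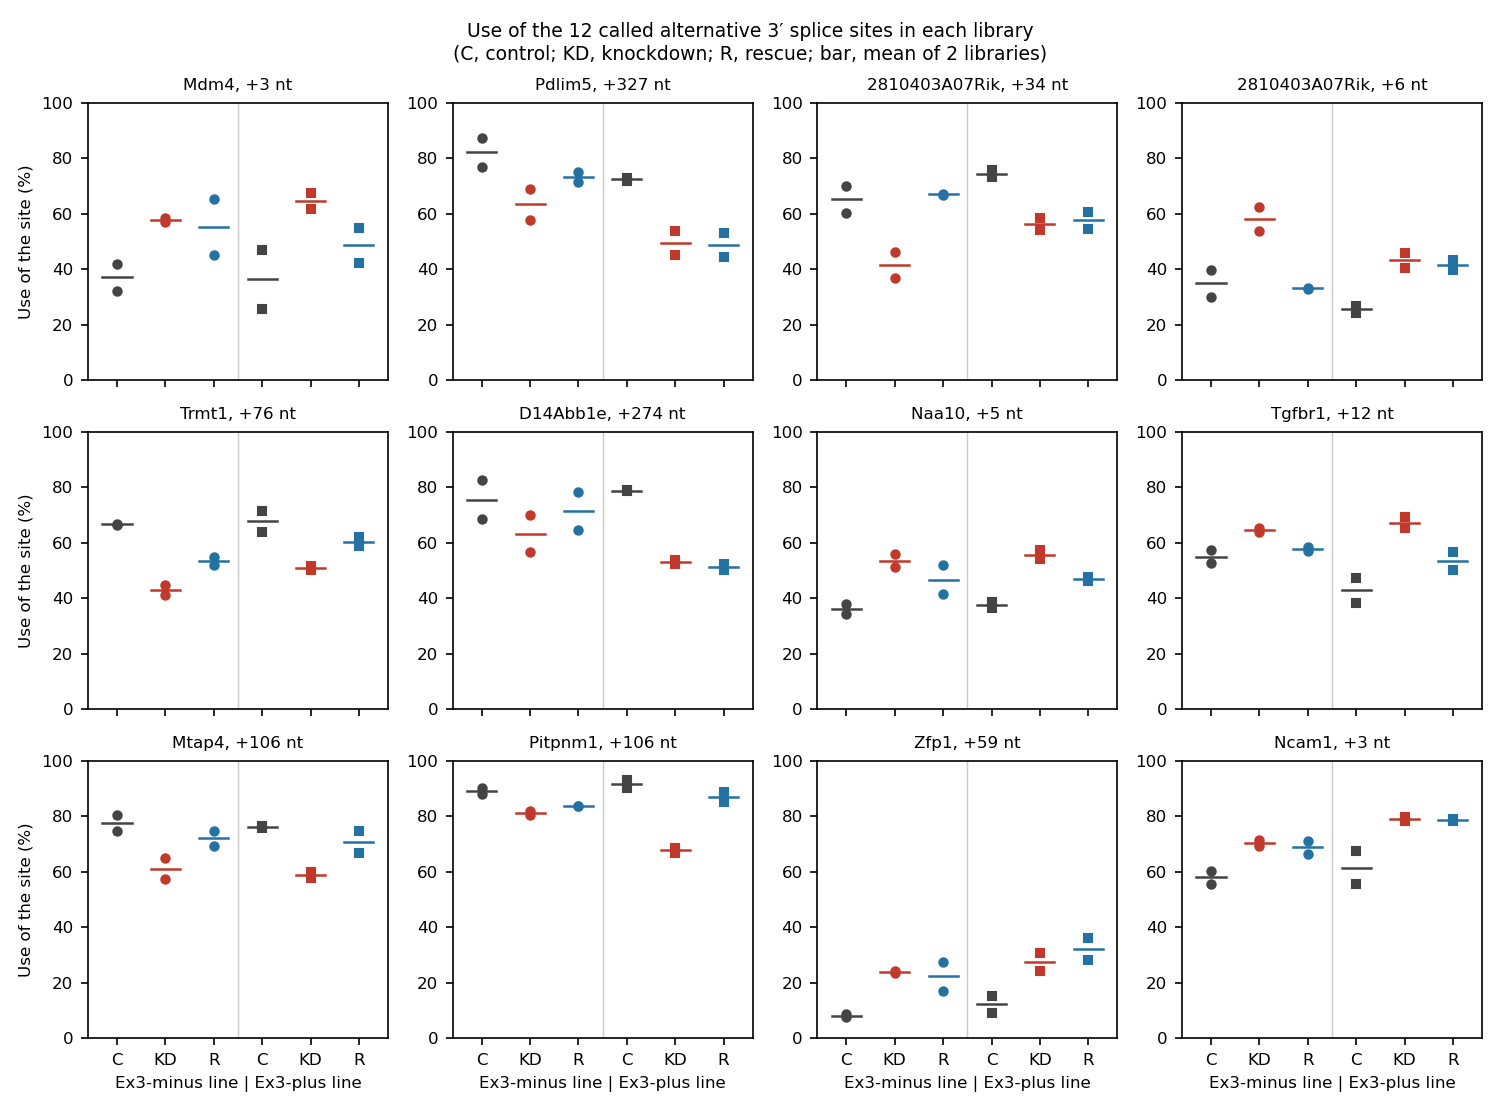
Use of the 12 called sites, in percent of the transcripts of their group, with 1 panel per site and 1 point per library (circles, Ex3-minus line; squares, Ex3-plus line; C, control; KD, knockdown; R, rescue; bars, mean of 2 libraries). In rescue, the 34 nt site of 2810403A07Rik was at the control level in the Ex3-minus line (67.2% and 66.7%). In the Ex3-plus line it was at 60.5% and 54.6%, the level of knockdown (58.4% and 54.2%).

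Among the sites with an adjusted p under 0.05, the counts of higher and lower sites were set out by added length. The members that add 3 nt rose in 5 of 5 such cases, namely Mdm4, Ncam1, Trrap, Scrib and Letm1. Other additions under 13 nt rose in 6 and fell in 3, and those of 13 to 49 nt rose in 2 and fell in 5. Additions of 50 nt to under 150 nt rose in 4 and fell in 14, and those of 150 nt or more fell in 3 of 3. The split was not tested, since sites of a group are linked and the classes hold few such sites. Added length is counted from site 1 of a group, also where site 1 was hardly used. Site 1 was at 0% in control and after knockdown in Naa10, and at 0% and 0.5% in 2810403A07Rik. The rises of their sites that add 5 and 6 nt were thus moves away from longer additions, as was that of the 6 nt site of Wdr46.

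Over all members of a class, the medians were small. The median knockdown change in the mean of both lines was 0.18 points for 3 nt, 0.33 for other lengths under 13 nt, 0.10 for 13 to 49 nt, -0.49 for 50 nt to under 150 nt and -0.59 for 150 nt and over, against 0.02 over all members. In the class of 50 nt to under 150 nt, 41.2% of 718 members were higher after knockdown, and at an unadjusted p under 0.05 there were 30 higher and 94 lower. In the class of 3 nt, 53.4% of 776 were higher, with 37 higher and 26 lower at that p. Among members with a mean between 10% and 90%, the medians were 0.39, 1.17, 0.09, -1.33 and -2.14 points in the same order of classes (407, 164, 251, 194 and 50 members).

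The lines share no library, and in each the medians of the 3 classes under 50 nt were above 0 and those of the 2 longer classes below 0. They were 0.07, 0.22, 0.09, -0.59 and -0.39 points in the Ex3-minus line and 0.33, 0.38, 0.10, -0.68 and -0.53 points in the Ex3-plus line. Library by library, the median shift of the 50 nt to under 150 nt class from the mean of the 4 control libraries was between -0.15 and 0.08 points in those control libraries, which are part of that mean. It was between -0.74 and -0.33 in the 4 knockdown libraries and between -0.72 and -0.33 in the 4 rescue libraries. In this class all knockdown and rescue libraries lay below all control libraries, and rescue overlapped knockdown. In the class of 150 nt and over, the control libraries (-0.39 to 0.17) and knockdown libraries (-0.74 to -0.15) overlapped. They also overlapped for 3 nt (control -0.17 to 0.21, knockdown 0.10 to 0.34) and for 13 to 49 nt (control -0.14 to 0.06, knockdown -0.16 to 0.18). For other lengths under 13 nt they did not (control 0.02 to 0.14, knockdown 0.31 to 0.37).

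**Figure D2:**
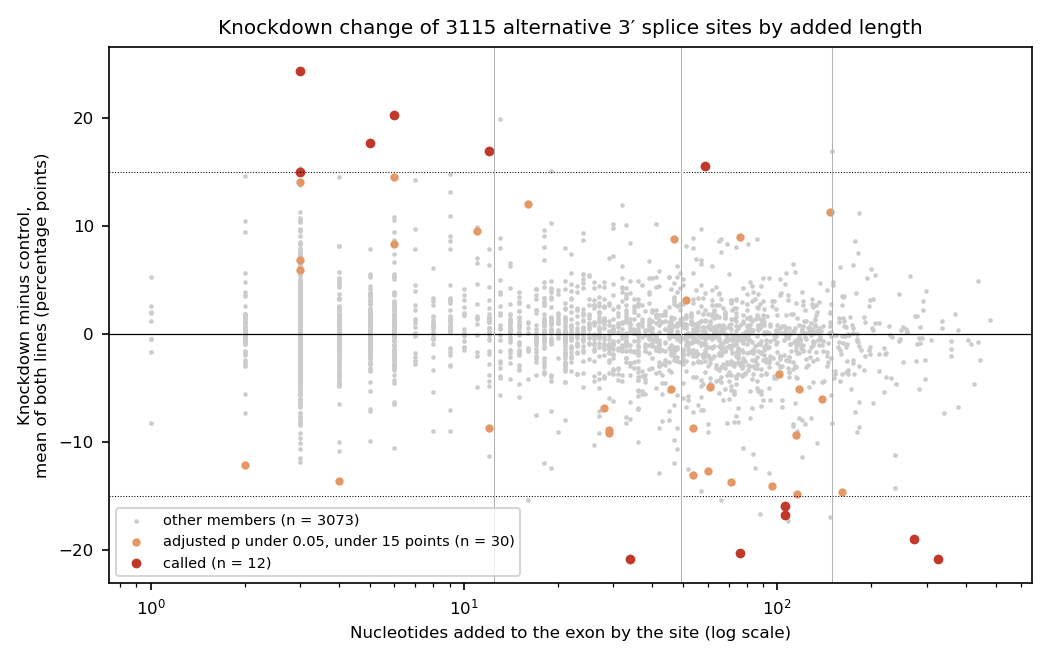
Knockdown minus control use in percentage points (mean of both lines) against the nucleotides added by the site on a log axis, for 3115 members; vertical lines separate the length classes and dotted lines mark 15 points. Of the 42 sites with an adjusted p under 0.05, the 5 that add 3 nt lie above 0 and the 3 that add 150 nt or more lie below it.

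**Figure D3:**
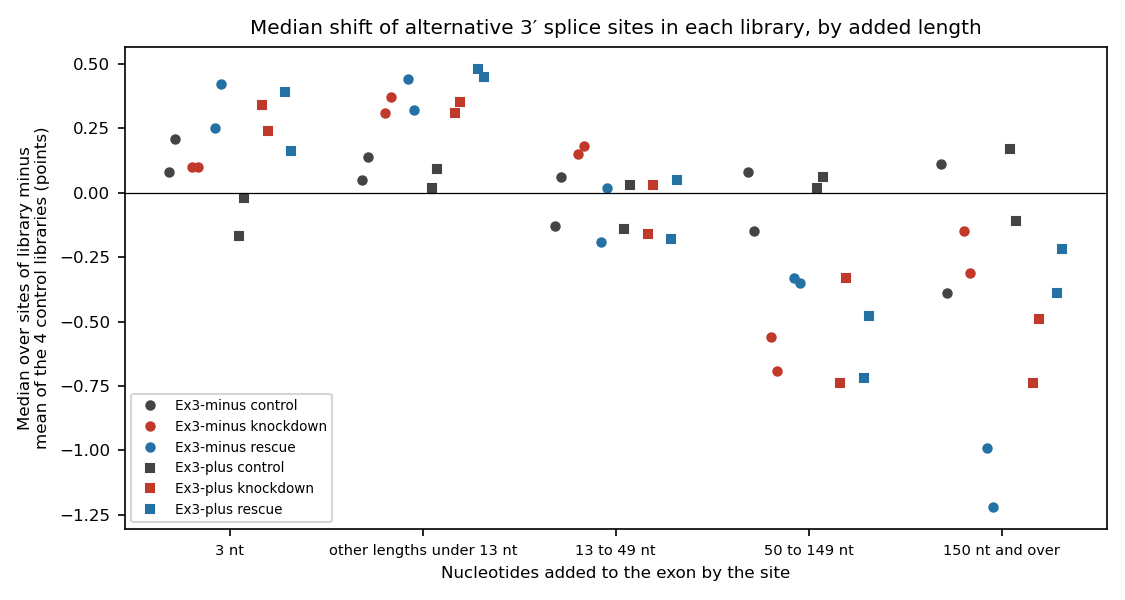
Median over the sites of a length class of the difference between a library and the mean of the 4 control libraries of both lines, in percentage points, with 1 point per library (circles, Ex3-minus line; squares, Ex3-plus line; grey, control; red, knockdown; blue, rescue). In the class of 50 nt to under 150 nt all 8 knockdown and rescue libraries lie at or below -0.33 and all 4 control libraries at or above -0.15.

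The members were also set out by reading frame and by intron length. Members that keep the frame had a median change of 0.10 points (11 higher and 7 lower at an adjusted p under 0.05) and those that break it -0.04 points (6 higher and 18 lower). The frame classes differ in added length, since 776 of the 1626 frame-keeping members add 3 nt. By the intron in front of the outer site, the median change was 0.03 points under 100 nt (228 members), -0.24 for 100 nt to under 200 nt (313 members), -0.04 for 200 nt to under 1000 nt (1049 members) and 0.10 for 1000 nt and over (1525 members). At an adjusted p under 0.05 there were 4 higher and 1 lower members in the first of these intron classes, 1 and 7 in the second, 7 and 11 in the third and 5 and 6 in the last.

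Further members passed the adjusted p but not 15 points. Wdr46, a nucleolar protein of ribosome biogenesis, moved from its site that adds 161 nt (22.1% in control, 7.5% after knockdown) to the site that adds 6 nt (77.9% and 92.5%), a difference of 14.6 points for the latter (SE 1.9, limma adjusted p = 0.00447). Fau, which codes for a ubiquitin-like protein fused to a ribosomal protein, moved the other way, from the site that adds 29 nt (94.5% to 85.5%) to the one that adds 47 nt (4% to 12.8%). In Chchd1, a mitochondrial ribosomal protein, the site that adds 2 nt fell from 90.5% to 78.4% while the site that adds 16 nt rose from 9.5% to 21.6%. Trrap, a scaffold of histone acetyltransferase complexes, gained use of a 3 nt site behind an intron of 83 nt (70.1% to 84.1%), and Scrib, a cell polarity protein, of one behind an intron of 82 nt (89.6% to 96.4%). Cpsf1, a subunit of the cleavage and polyadenylation complex, fell from 96.6% to 87.3% at a site that adds 115 nt behind an intron of 142 nt. Wdr46 is named by the rule for called sites, and the others in this paragraph were chosen after their values were seen.

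Within single lines fewer sites passed. In the Ex3-minus line limma called 0 members, where 0.0207% of all events were called, and 204 had an unadjusted p under 0.05 (6.55%, where 10.5% of all events did). At any size 0 passed the adjusted p (all events 0.0242%, and 0.0173% called higher), and the lowest adjusted p was 0.0598, at Trmt1. The count of called members was no longer 0 without Ex3-minus knockdown replicate 1, where the count over all events was also higher. In the Ex3-plus line 5 members were called (0.161%, where 0.338% of all events were), 2 higher and 3 lower. At any size 7 passed the adjusted p (4 higher, 3 lower; 0.225%, where 0.424% of all events did), and for 286 (9.18%, all events 13.5%) the unadjusted p was under 0.05. Without either Ex3-plus control library the count of called members was 0, without either Ex3-minus control library it was 2, and it was 3 without Ex3-plus knockdown replicate 2, Ex3-minus rescue replicate 1 or either Ex3-plus rescue library.

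The 5 sites of the Ex3-plus line were in Hmbox1, 0610007P22Rik, Tgfbr1, Pitpnm1 and Wdr46. Hmbox1, a homeobox protein that binds telomeric DNA, moved in opposite directions in the lines at its 3 nt site, at position 65444529 of chromosome 14. Of the Ex3-minus libraries, those of control gave 25.4% and 29.7%, those of knockdown 31.9% and 36.2% and those of rescue 31.6% and 20.4%. In the Ex3-plus line its use was 41.7% and 51.1%, 15.2% and 18.8% and 44.2% and 39.5% in the same order. The 2 knockdown libraries of the Ex3-plus line were the lowest of the 12. The change was -29.4 points (SE 5.2, limma adjusted p = 0.0428) there and 6.5 points (SE 5.2, limma adjusted p = 0.746) in the Ex3-minus line. The difference between the lines was -35.9 points (SE 7.4), with an unadjusted limma p of 0.000485 and an adjusted p of 1.

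0610007P22Rik (Tsr3), a ribosomal RNA modification enzyme, has 6 competing sites, of which the one at position 25378009 of chromosome 17 adds 116 nt of coding sequence behind an intron of 400 nt. In the Ex3-minus line 85.8% and 89.2% of transcripts used it in control, 80.7% and 85.6% after knockdown and 89.8% and 91.3% after rescue. Values of 89.5% and 88.5%, 67.2% and 60% and 80.4% and 80.4% were measured in the corresponding Ex3-plus groups. Knockdown was lowest in the Ex3-plus line, and its rescue libraries lay between control and knockdown. The change was -25.4 points (SE 2.9, limma adjusted p = 0.0101) there and -4.3 points (SE 2.9, limma adjusted p = 0.68) in the Ex3-minus line. For Wdr46 the corresponding changes at the 6 nt site, at position 34081427 of chromosome 17, were 17.7 points (SE 2.7, limma adjusted p = 0.0289) and 11.4 points (SE 2.7, limma adjusted p = 0.135).

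Across members, the knockdown changes of the lines correlated with Pearson's r = 0.393 and Spearman's rho = 0.309 over 3115 sites, against 0.655 and 0.494 over all 28980 events. These are descriptions across sites, which are not independent, and no library is shared. Of the 18 members that moved by at least 15 points in the Ex3-minus line, 18 had the same sign in the Ex3-plus line. Of 51 such members in the Ex3-plus line, 40 had the same sign in the Ex3-minus line, and the 10 past 15 points in both had the same sign in 10 cases. Over all events, 2.02% and 3.00% moved by at least 15 points in these lines. The difference between the lines was called by limma at 0 members, where 0 of 28980 events were called, and 105 members had an unadjusted p under 0.05 (3.37%, all events 3.20%).

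**Figure D4:**
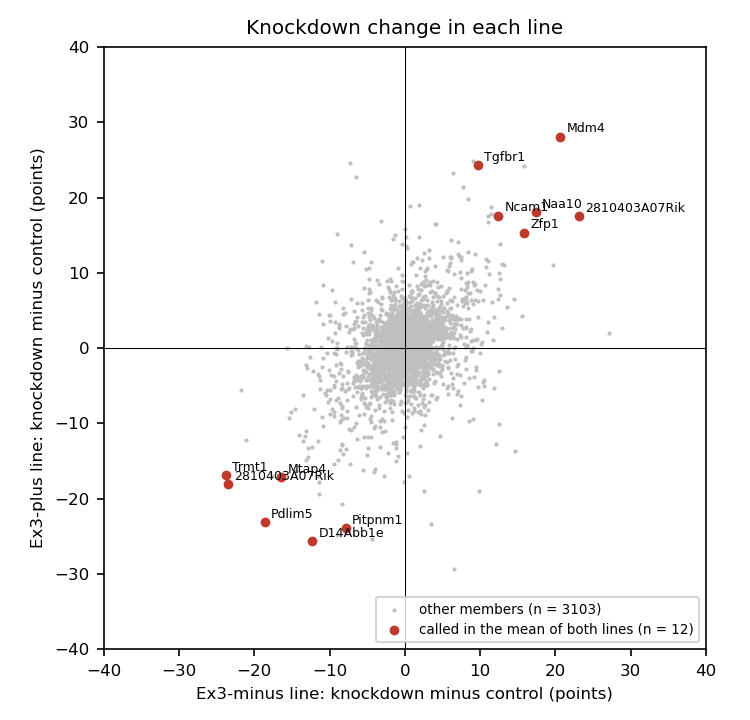
Knockdown minus control use in percentage points in the Ex3-minus line (horizontal) against the Ex3-plus line (vertical), with 1 point per member and the 12 called sites in red. The called sites lie in the quadrants of equal sign, which their choice by the mean of both lines favours. The cloud of 3115 members has r = 0.393.

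Rescue compares cells given the siRNA with and without the induced isoform, and it shares its knockdown libraries with the comparison above, so the values are set side by side. Limma called 0 members for rescue against knockdown in either line, where 0.00345% of all events were called in the Ex3-minus line and 0 in the Ex3-plus line. At an unadjusted p under 0.05 there were 151 members (4.85%, all events 8.57%) in the Ex3-minus line and 197 (6.32%, all events 6.84%) in the Ex3-plus line. For rescue against control it called 0 members in either line (all events 0.00345% and 0), with 164 (5.26%, all events 5.58%) and 224 (7.19%, all events 8.39%) at an unadjusted p under 0.05. The difference between the lines of rescue against knockdown was called at 0 members (all events 0.00345%), with 160 (5.14%, all events 5.27%) at an unadjusted p under 0.05.

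Rescue values by line are given for 2810403A07Rik, Pitpnm1 and Hmbox1. At the 34 nt site of 2810403A07Rik rescue minus knockdown was 25.3 points (SE 4.6, limma adjusted p = 0.178) in the Ex3-minus line and 1.2 points (SE 4.6, limma adjusted p = 0.991) in the Ex3-plus line. The difference between them was -24.1 points (SE 6.5), with an unadjusted limma p of 0.00347 and an adjusted p of 0.88. At Pitpnm1 the order was the reverse, with 2.5 points (SE 2.4, limma adjusted p = 0.846) in the Ex3-minus line and 19.3 points (SE 2.4, limma adjusted p = 0.0914) in the Ex3-plus line, the lowest adjusted p of a member in that comparison. At the 3 nt site of Hmbox1 it was -8.0 points (SE 5.2, limma adjusted p = 0.736) in the Ex3-minus line and 24.9 points (SE 5.2, limma adjusted p = 0.363) in the Ex3-plus line. The difference between the lines was 33.0 points there (SE 7.4), with an unadjusted limma p of 0.000931 and an adjusted p of 0.83. None of these differences passed the adjusted threshold.

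Of the other called sites, rescue minus knockdown was 10.9 and 11.9 points for Mtap4 and 10.6 and 9.5 points for Trmt1 (Ex3-minus, then Ex3-plus line), after knockdown changes of -16.4 and -17.2 and of -23.8 and -16.9 points. For Naa10 it was -6.9 and -8.8 points and for Tgfbr1 -6.9 and -13.9 points. For Ncam1 it was -1.6 and -0.6 points and for Zfp1 -1.6 and 4.5 points, with rescue libraries at the level of knockdown. For Mdm4 it was -2.4 and -15.9 points, for Pdlim5 9.8 and -0.7, and for D14Abb1e 8.1 and -1.8 points. Rescue minus control in the 50 nt to under 150 nt class had a median of -0.39 points in the Ex3-minus and -0.42 points in the Ex3-plus line, against -0.07 and -0.02 points over all members.

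An intron can also be kept whole at the same junction, and the table measures that separately. Of the members, 624 had a tested intron ending at one of their sites (619 introns). Of these introns 12 were called after knockdown in the mean of both lines, 11 higher and 1 lower (1.94%, where 1.59% of all 17096 introns were), and their median change was 1.12 points against 0.82 over all introns. In 12 of the 13 members at a called intron, the choice of site moved by less than 8 points: in Pan2, a deadenylase subunit, retention rose by 44.0 points (SE 5.75, limma adjusted p = 0.00462) while the site that adds 14 nt changed by 1.29 points (limma adjusted p = 0.82). In Kdm3a, a histone demethylase, retention rose by 20.4 points (limma adjusted p = 0.00465) and the 3 nt site changed by -0.49 points. Pan2 and Kdm3a were chosen after their values were seen.

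Pitpnm1 was the exception, with a called change in both. Retention of its 182 nt intron went from 18.8% in control to 42.6% after knockdown, 23.9 points higher (SE 4.2, limma adjusted p = 0.0133), while the 106 nt site lost 15.9 points. In 2810403A07Rik, retention of the intron in front of the 34 nt site was 17.8% in control and 33.2% after knockdown (15.4 points, SE 4.1, limma adjusted p = 0.0663). The other 10 called sites had no tested intron at their junction.

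The authors' deposited splicing table gives its own calls, by a rule unknown here, and 45 of its 88 entries for alternative 3′ splice sites could be matched to members. It calls 10 members for knockdown in the Ex3-minus line (5 higher, 5 lower; background 1.54% of the tested events) and 15 in the Ex3-plus line (9 higher, 6 lower; background 2.12%). It calls 3 members in both lines (background 0.925%). They are the sites of Mdm4 (20.24 and 26.48 points in the authors' deposited table), Pdlim5 (-19.45 and -22.91) and Mtap4 (-15.85 and -17.12). For rescue against knockdown the authors' deposited table calls 2 and 6 members (background 0.776% and 0.276%), and for rescue against control 6 and 12 (0.455% and 0.856%). Of the 12 sites called by limma, 6 are called there in at least 1 line, and the other 6 were not among its matched entries. The first 6 are all sites of pairs, and the other 6 all lie in groups of 3 or 4 sites.

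The genes of 3′ splice site recognition held 30 members in 18 genes of a list of 40 symbols, which includes older names of genes also listed. Limma called 0 of them in any comparison, and 0 had an adjusted p under 0.05 in the mean of both lines. In that mean, 0.385% of all members were called and 1.35% passed the adjusted p (all events 1.48% and 3.86%). At these shares, 30 members are too few for a count of 0 to set the genes apart. Their median change was 0.44 points against 0.02 over all members. The largest was in Cherp, a U2 snRNP-associated protein that works with RBM17, where a site that adds 33 nt was at 15.6% in control and 7.4% after knockdown, -8.2 points (SE 2.4, limma adjusted p = 0.0909). Next were Acin1, a protein of the exon junction complex, with 6.8 points (SE 3.2, limma adjusted p = 0.282) at a site that adds 39 nt, and Sugp1, a G-patch protein bound to SF3B1, with 5.1 points (SE 2.2, limma adjusted p = 0.236) at a site that adds 102 nt and -4.8 points (SE 1.5, limma adjusted p = 0.0987) at one that adds 12 nt. Control and knockdown libraries of both Sugp1 sites did not overlap, and those of the other sites did. Rbmx and Hnrnpc, both RNA-binding proteins of the hnRNP family, had 4.2 and -3.6 points at sites that add 3 and 24 nt.

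At the level of whole genes, 37 of these 40 symbols carried a test in the authors' deposited table. In it, 0 had an FDR under 0.05 in either line for knockdown (all genes: 2.26% in the Ex3-minus and 3.68% in the Ex3-plus line). The log2 fold change was positive in 30 of 37 and in 31 of 37, with medians of 0.21 and 0.24, where 49.9% of all 21541 genes were positive in each line. The lowest FDR values of the list were those of Sap30bp itself in the Ex3-minus line (log2 fold change -0.63, FDR 0.0674) and of Sf3b3, a core subunit of the U2 snRNP, in the Ex3-plus line (log2 fold change 0.63, FDR 0.068). U2af1 (0.16 and 0.20), U2af2 (0.33 and 0.33), Sf1 (0.37 and 0.26) and Rbm17 (0.22 and 0.21) had small positive values in the authors' deposited table. These values share their libraries with the splicing values, and their part in the site changes was not tested.

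The total levels of the genes that host these sites were taken from the authors' deposited table of gene expression. Of the 14 host genes of the sites named for a limma call, 1 had an FDR under 0.05 in the authors' deposited table in the Ex3-minus line (all genes 2.26%) and 0 in the Ex3-plus line (all genes 3.68%). It was Trmt1 in the Ex3-minus line (log2 fold change 0.71, FDR 0.0164; 0.45, FDR 0.208 in the Ex3-plus line). Over the 14, log2 fold changes in the authors' deposited table lay between -0.53 and 0.71 in the Ex3-minus line and between -0.68 and 0.59 in the Ex3-plus line. Khdc4 had 0.54 and 0.59 (FDR 0.266 and 0.161), Pitpnm1 -0.53 and -0.68 (FDR 0.292 and 0.0853) and Mdm4 -0.17 and -0.12 (FDR 0.903 and 0.951) in that table. For Pitpnm1 the RPKM of the authors' deposited table moved less than its fold change, from 32.7 in control to 31.7 after knockdown in the Ex3-minus line and from 32.5 to 30.4 in the Ex3-plus line. The percentages compare transcripts of the same gene, so a change in the stability of one form and a change in splicing cannot be told apart.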

How the data were processed

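Percent inclusion (percent spliced in) per event and library was deposited by the authors as a vast-tools table on mm9; its version and its treatment of low coverage were not given in the sources used here. In the expression table that the authors deposited, each group has 1 RPKM value, and each comparison a log2 fold change with p-value and FDR, so replicates were combined. The submitters' processing notes name Salmon 0.14.1 and edgeR. The authors' deposited splicing table gives a score per comparison (a change in percentage points) and other, TRUE or FALSE, calls.

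The members, lists, length classes and rules were chosen with earlier results of these data known. The percentages of 28980 events were modelled with limma 3.58.1 (R 4.3.3) with 6 group means, a trended and robust variance, 9 contrasts and Benjamini-Hochberg adjustment over all events, two-sided. Events needed a value in 12 libraries and a mean between 2% and 98%. A call needed an adjusted p under 0.05 and 15 points. The script was tested on simulated data. Differences and their SE are in percentage points. Depth per library is unknown, since no read numbers accompany the values. The number of events with a value was 203635 to 231483 per library.

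Named were all sites called in the mean of both lines, up to 6 of each other contrast, up to 6 in genes of the 3′ splice site factor list, the members nearest the bounds and sites the authors called in both lines. Alternatives were no filter on the mean, at least 10 libraries, a logit scale, no trend, thresholds of 10 and 20 points, the replicate block, each group counted once, and leaving out each library. Sequences came from GENCODE vM21. Figures were drawn with matplotlib.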

Additional observations from a re-analysis of the deposited data

How the results depend on the processing

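In the mean of both lines, the 12 called sites (all events 430) became 2 with no filter on the mean percentage (all events 55). They became 24 at a threshold of 10 points (all events 716) and 5 at 20 points (all events 234). The count was 17 with a value in at least 10 libraries (11 of the 12 kept), 9 on the logit scale, 11 without a trended and robust variance, and 11 with each group of sites counted once. Leaving out 1 library at a time gave 4 to 19. In the Ex3-plus line the 5 calls became 1 with no filter and 1 on the logit scale, and leaving out 1 library gave 0 to 5. In the Ex3-minus line the 0 calls became 1 without a trended and robust variance, and leaving out 1 library gave 0 to 9. Where a left-out library leaves a group with 1, that library is assumed to vary like the others. The libraries were not taken to be paired, since with 2 replicates per group their labels share only a number. Deviations of same-numbered libraries correlated between 0.15 and 0.31 over all events and between 0.06 and 0.18 over the members. With the replicate block the counts were 15, 10 and 1 in the mean, the Ex3-plus and the Ex3-minus line, all 12 calls of the mean were kept, and no other count changed.

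For rescue against knockdown, the 0 calls became 1 in the Ex3-minus line with at least 10 libraries, and in the Ex3-plus line 1 with no filter, 1 on the logit scale and 1 without a trended and robust variance. Leaving out 1 library gave 0 to 1 in each of these lines. For rescue against control in the Ex3-minus line the count was 1 with at least 10 libraries. The differences between the lines had 1 call for knockdown with no filter and 1 for rescue with at least 10 libraries. The median change of 0.02 points ranged from -0.08 (without Ex3-plus control replicate 1) to 0.04. The site of Hnrnpc reversed, from -3.6 to 0.5 points, without Ex3-plus knockdown replicate 1, and ranged from -7.7 to 0.5 points when 1 library was left out. Of the 12 called sites, Trmt1 and Pitpnm1 kept an adjusted p under 0.05 in 17 of 17 alternatives. The cause of these changes was not tested, apart from the changed number of events or libraries that an alternative sets itself. The depth behind the percentages is unknown, so sites with few reads could not be told from well covered ones.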
